A study of Mus musculus with 5 samples.

Results

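The block of neighbouring genes from Apoc1 to Bcl3 on mouse chromosome 7 carries 7 protein-coding genes, Apoc1, Apoe, Tomm40, Nectin2, Bcam, Cblc and Bcl3. Every peak of the V5-KLF5 immunoprecipitate with its summit inside one of these genes, or no more than 10 kb from one, was taken. That gave 45 of the 45378 peaks of the list, in a stretch of 153 kb from 19679480 to 19832824 (mm10, 1-based). The block was selected on its summit density, measured in this same list, so its peak count and peak strengths are descriptions and were not tested.

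KLF5, a Krüppel-like factor, is a zinc-finger protein that binds GC-rich and CACCC-type DNA and takes part in the self-renewal of mouse embryonic stem (ES) cells. Apoe and Apoc1 encode exchangeable apolipoproteins, the protein coats of lipoprotein particles, and apolipoprotein E is the ligand by which cell-surface receptors take such particles up. Tomm40 encodes the channel of the translocase of the outer mitochondrial membrane (TOM), through which most mitochondrial proteins enter. Nectin2 and Bcam encode immunoglobulin-type adhesion molecules, the first of cell-cell junctions and the second a receptor for laminin. Cblc encodes a ubiquitin ligase that acts on receptor tyrosine kinases, and Bcl3 encodes a nuclear member of the IkB family that binds NF-kB subunits.

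Chromatin immunoprecipitation followed by sequencing was performed on ES cells that were wild type apart from overexpression of V5-KLF5, derived from C57B6/J mice per the labels. The V5 tag is a short peptide that an antibody recognises, and here anti-V5 was the immunoprecipitating antibody. A normal mouse IgG immunoprecipitate and input DNA came from the same V5-KLF5 cells. An anti-V5 immunoprecipitate and input DNA of wild-type ES-D3 cells, an established mouse ES line without the tag, completed the 5 libraries. The sources used here do not give what drove the overexpression. The header of the list from the untagged cells names another ES line, JM8.N4, so the line of that control is uncertain. Each group was 1 library, so no difference has a replicate check. Per the file headers, 23.2 M (mega) tags of the V5-KLF5 library were kept after duplicates were removed, against 24.5 M for the IgG library and 21.8 M for the untagged V5 library. Within the block the V5 list of the V5-KLF5 cells held 45 peaks, the IgG list 0 and the untagged V5 list 0. Those control lists held 3 and 0 peaks over the whole genome, so the absence of control peaks says nothing particular about the block.

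RefSeq promoter sequence, from 250 bases before to 50 after a start site, was at hand for 5 of the 7 genes (Apoe, Tomm40, Nectin2, Bcam and Bcl3), all on the minus strand, and for several noncoding genes of the block. These 5 genes have 7 promoter entries, 3 of them of Apoe. A V5-KLF5 summit lay inside 4 of the 7 entries, 1 each of Apoe, Tomm40, Nectin2 and Bcl3, where 19.5% of all 32851 entries had one. A V5-KLF5 peak overlapped 6 of the 7, at least 1 of each gene, where 33.7% of all entries were overlapped. Each of the 6 sequences below overlaps a peak of the block. Promoters of the noncoding genes Gm38955, Gm34744 and Gm34891 and another entry of Apoe also overlap one and are not printed. Of the 6, 5 are of the genes named above. The other, Gm16174, is a noncoding RNA gene inside Bcl3 on the plus strand, and one of the strongest peaks had its summit in its promoter. Sequences are from RefSeq on GRCm38.p6 (the assembly named mm10 in the files) and run 5′ to 3′ on the strand of the gene. Capitals mark matches of CCNCNCCC on either strand, a letter pattern that fits KLF sites of the CACCC type as well as the GC boxes that SP factors bind. Neighbouring matches that overlap run together in capitals.
Apoe, chr7:19699139-19699438, minus strand: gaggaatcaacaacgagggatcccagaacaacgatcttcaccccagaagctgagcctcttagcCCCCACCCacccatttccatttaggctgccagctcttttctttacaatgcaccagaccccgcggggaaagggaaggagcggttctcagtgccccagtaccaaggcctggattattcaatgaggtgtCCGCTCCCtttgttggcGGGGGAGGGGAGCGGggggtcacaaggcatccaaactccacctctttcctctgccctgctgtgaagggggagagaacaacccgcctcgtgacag
Tomm40, chr7:19715380-19715679, minus strand: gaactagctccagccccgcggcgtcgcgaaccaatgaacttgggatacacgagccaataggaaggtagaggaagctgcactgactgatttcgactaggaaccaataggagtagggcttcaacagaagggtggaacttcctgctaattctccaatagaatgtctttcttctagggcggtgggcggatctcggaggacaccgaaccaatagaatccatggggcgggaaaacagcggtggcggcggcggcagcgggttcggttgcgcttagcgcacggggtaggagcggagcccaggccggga
Nectin2, chr7:19749524-19749823, minus strand: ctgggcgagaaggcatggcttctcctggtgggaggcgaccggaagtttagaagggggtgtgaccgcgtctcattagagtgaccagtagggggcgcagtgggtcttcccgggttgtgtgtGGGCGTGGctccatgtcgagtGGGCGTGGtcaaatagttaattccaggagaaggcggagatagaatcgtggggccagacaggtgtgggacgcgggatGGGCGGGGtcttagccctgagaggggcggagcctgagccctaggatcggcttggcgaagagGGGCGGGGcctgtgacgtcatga
Bcam, chr7:19770483-19770782, minus strand: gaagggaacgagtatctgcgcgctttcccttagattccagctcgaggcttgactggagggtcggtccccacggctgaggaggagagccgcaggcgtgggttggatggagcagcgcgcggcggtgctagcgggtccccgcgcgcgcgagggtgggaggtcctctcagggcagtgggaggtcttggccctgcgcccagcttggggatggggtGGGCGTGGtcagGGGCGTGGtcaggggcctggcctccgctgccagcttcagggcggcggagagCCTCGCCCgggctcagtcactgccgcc
Gm16174, chr7:19816335-19816634, plus strand: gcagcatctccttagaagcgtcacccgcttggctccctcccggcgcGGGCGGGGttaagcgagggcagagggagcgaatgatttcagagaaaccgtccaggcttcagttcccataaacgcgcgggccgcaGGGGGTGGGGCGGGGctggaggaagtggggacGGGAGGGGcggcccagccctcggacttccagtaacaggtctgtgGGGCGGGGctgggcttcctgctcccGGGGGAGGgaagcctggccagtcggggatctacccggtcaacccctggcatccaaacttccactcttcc
Bcl3, chr7:19822706-19823005, minus strand: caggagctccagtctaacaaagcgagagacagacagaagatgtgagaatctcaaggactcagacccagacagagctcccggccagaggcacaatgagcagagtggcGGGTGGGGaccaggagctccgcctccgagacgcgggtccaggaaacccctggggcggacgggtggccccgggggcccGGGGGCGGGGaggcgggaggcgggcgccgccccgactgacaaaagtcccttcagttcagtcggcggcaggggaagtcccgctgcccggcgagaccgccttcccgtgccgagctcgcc

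Matches of CCNCNCCC occurred in 4 of the 7 promoter entries of these genes, where 49.5% of all entries held at least 1. The Apoe promoter held 5 matches, Nectin2 4, Bcam 3, Bcl3 3 and Tomm40 0, and the Gm16174 promoter held 7. Of the noncoding promoters not printed, those of Gm34744 held 3 or 4, that of Gm34891 1 and that of Gm38955 0. Having 5 or more matches was seen in 8.16% of all entries. The other start sites of Apoe, 2 of its 3 entries, held 0. The more restricted pattern CCACNCCC, found in 17.6% of all entries, occurred 2 times in Nectin2 and 2 times in Bcam, in both on the strand opposite to the gene as GGGCGTGG. It occurred 1 time in Gm16174 and 0 times in the shown promoters of Apoe, Tomm40 and Bcl3. The shorter pattern CCCNCCC, tried after the data were seen and found in 48.1% of all entries, occurred in 7 of the 7 entries. In the Nectin2 promoter the summit, 126 bp upstream of the start site, stood 1.5 bp from the centre of the nearest CCNCNCCC match. That distance was 13.5 bp in Gm16174, 29.5 bp in Apoe and 32.5 bp in Bcl3. The Bcam summit lay 770 bp upstream of the start site, outside the printed sequence, so no such distance is given for it. These distances were not set against a background, and in a promoter with several matches many positions lie close to one. GC content was 57.7% in the Apoe promoter, 58% in Tomm40, 62.7% in Nectin2, 71% in Bcam, 69% in Bcl3 and 67% in Gm16174. Each of these printed promoters stood above the median of 52.7% over all entries. Of those not printed, the other Apoe entries (51% and 52%) and Gm34891 (48.7%) stood below it. Those of Gm34744, Gm38955, Apoc4 and Gm44805 stood above it. The part of GC content in the match counts was not tested. A match is a match of letters and was not tested as a binding site.

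**Figure D1:**
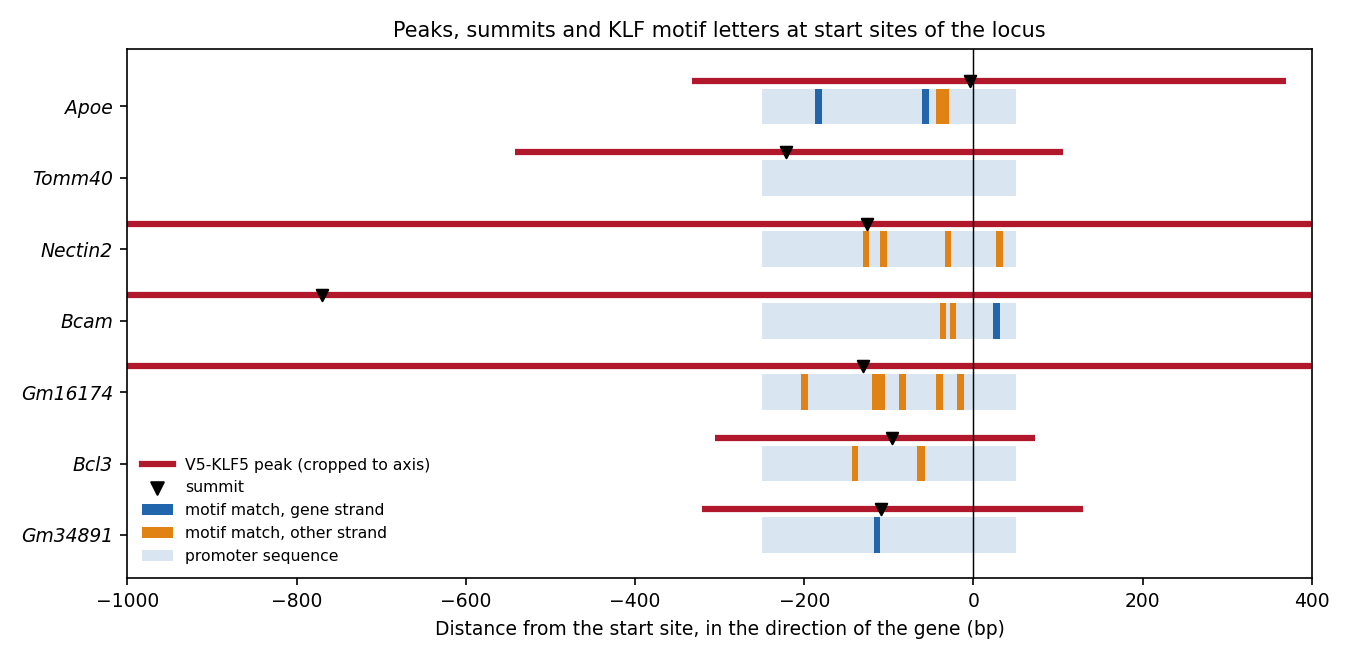
Peaks (red), summits (triangles) and CCNCNCCC matches (blue on the strand of the gene, orange on the other) around start sites, with distance in bp from the start site along the x axis and 1 gene per row. The Apoe summit lies 4 bp and the Nectin2 summit 126 bp upstream of the start site, the Bcam summit lies 770 bp upstream, and Tomm40 is the row with a peak and 0 matches.

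Peaks of the block were spread over most of its length, and the share near gene ends was close to that of the whole list. Of the 45 summits, 28 lay inside one of the 7 genes and 17 between or beside them. The inside share of 62.2% stood beside 55.3% of all summits lying inside a protein-coding gene. The bodies of the 7 genes fill most of the stretch, and these shares were not corrected for gene content. An end of a coding gene was no more than 1 kb away from 11 of 45 summits (24.4%, exact Clopper-Pearson 95% interval 12.9 to 39.5), where the share over the whole list was 26.6%. On the rest of chromosome 7 that share was higher, 32.3%. Adjacent summits were a median of 2057 bp apart in the block, against 13747 bp over the list. Peaks covered 33787 bp, or 22.0% of the stretch. They were also wide, with a median length of 642 bp against 427 bp over the list, and 9 of 45 (20%) reached 1 kb, against 5.89% of the list. There were 3 gaps of over 10 kb between summits: 14472 bp across Tomm40, 13220 bp over the 3′ part of Nectin2, and 12198 bp between Cblc and Bcl3.

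**Figure D2:**
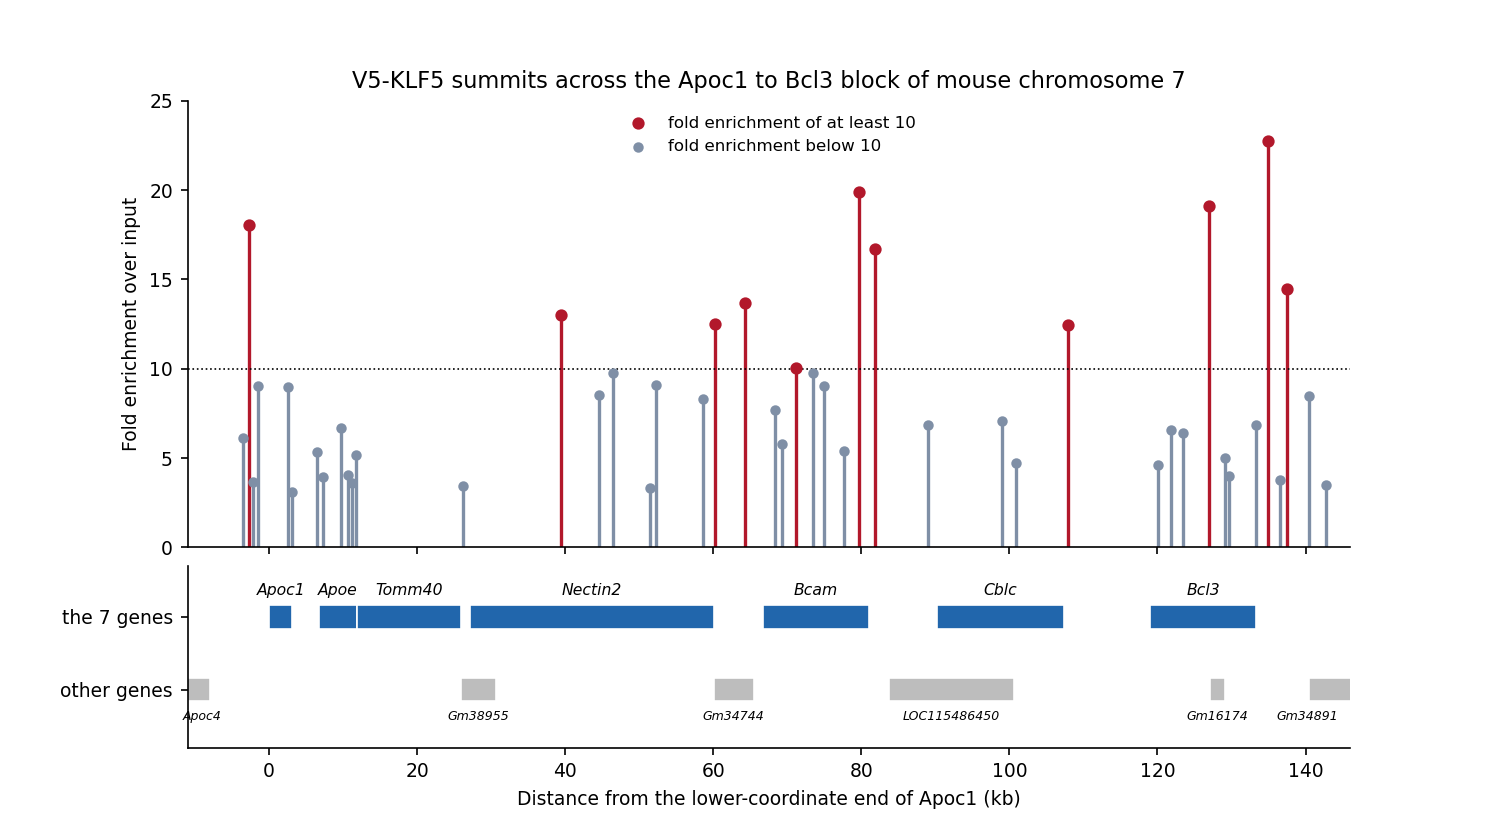
Fold enrichment over input (y axis) of each of the 45 V5-KLF5 summits by distance in kb from the lower-coordinate end of Apoc1 (x axis), above the 7 genes (blue) and other genes (grey). Summits with a fold enrichment of at least 10 (red) stand below Apoc1, in and around Nectin2 and Bcam, beside Cblc and at Bcl3, and the body of Tomm40 holds none.

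Fold enrichment is the height of the extended tags at the summit (pileup, plus 1) over the local input background (plus 1), as the authors' peak caller gave it. In the block its median was 6.84 with quartiles of 4.70 and 9.76 and a range of 3.11 to 22.8, against a median of 5.18 with quartiles of 4.15 and 7.45 over the list and 5.37 on the rest of chromosome 7. The order-statistic 95% interval of the block's median ran from 5.37 to 9.01 and covers the sampling of peaks only. A fold enrichment of at least 10 was reached by 11 of 45 peaks (24.4%, interval 12.9 to 39.5), where 13.0% of the list reached it. The strongest peak of the block ranked 437 of the 45366 peaks on assembled chromosomes.

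Apoc1 and Apoe, the lipoprotein genes, held 7 summits inside the gene bodies and 5 beside them, of which 11 had fold enrichments under 10. The other was a peak below Apoc1, at chr7:19686477-19687205, 2694 bp from that gene's lower-coordinate end, with a pileup of 73 and a fold enrichment of 18.1. It stood on an input background of 3.10, the genome-wide floor that the caller applies. The 3 other summits below Apoc1 had fold enrichments of 6.10, 3.66 and 9.03. Inside Apoc1 the summit 633 bp from the higher-coordinate end had a fold enrichment of 8.99 and the one 77 bp from that end had 3.11, the lowest of the block.

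In Apoe the 5 summits inside the gene had fold enrichments from 3.60 to 6.68 and pileups of at most 39. The highest of them stood 4 bp upstream of the start site printed above, in the peak at chr7:19698819-19699521, with a pileup of 39 over a background of 4.98. Summits at 908, 1503 and 1990 bp upstream of that start site, still inside the gene as the RefSeq table bounds it, had fold enrichments of 4.04, 3.60 and 5.17. A summit 251 bp beyond the 3′ end had 5.35. The start-site peak ranked 25 of 45 in the block.

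Tomm40 had no summit inside its 14130 bp, the only one of the 7 genes without one. The peak at its start, chr7:19715323-19715971, had its summit 221 bp upstream of the start site and a fold enrichment of 3.46, rank 43 of 45. Its pileup of 29 was near the block's median of 32. The input background there was 7.67, the highest in the block along with that of the Bcam promoter, against a block median of 3.55. The peak also overlaps the start of Gm38955, a noncoding gene on the plus strand that begins 35 bp away.

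**Figure D3:**
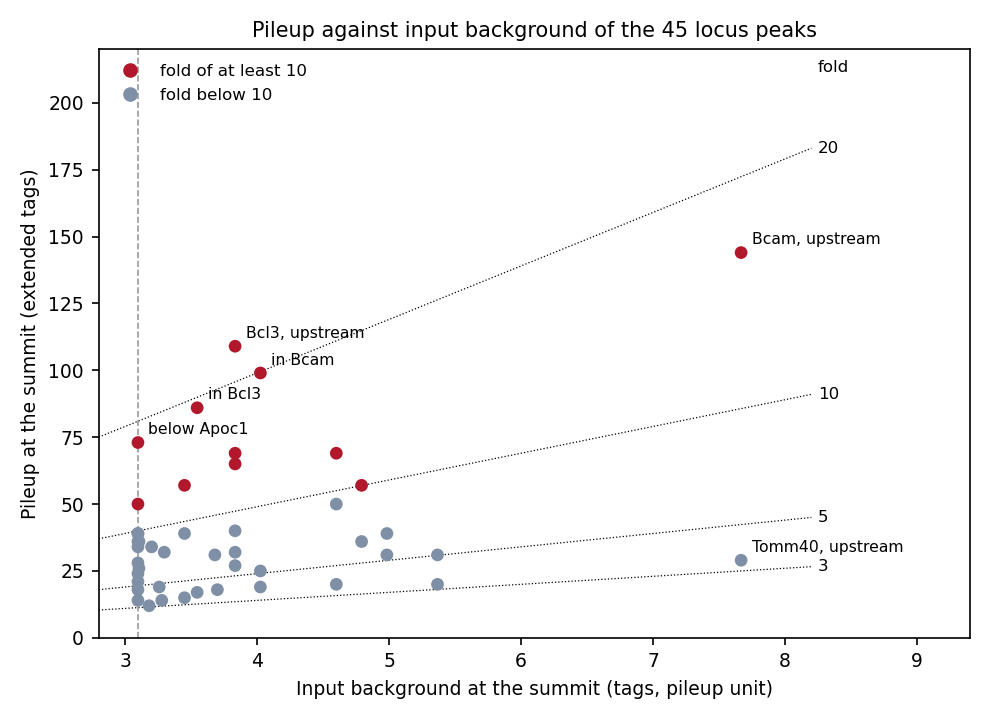
Pileup at the summit in extended tags (y axis) against the input background in the same unit (x axis) for the 45 peaks of the block, with dotted lines of equal fold enrichment and a dashed line at the background floor of 3.10. Of the 45, 11 stand on the floor, to within 0.001, and the peaks upstream of Bcam (pileup 144) and of Tomm40 (pileup 29) share the background of 7.67. The other 34 (75.6%) lie above the floor, where 62.8% of the list does.

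Nectin2, the junction adhesion gene, held 6 summits inside and a strong one at its start. The start peak, chr7:19748734-19750675, was 1942 bp wide, with a pileup of 69 and a fold enrichment of 12.5. Gm34744, a plus-strand noncoding gene, begins at the same place in the opposite direction, so the peak covers both starts. A similar peak, chr7:19753523-19754210, lay inside Gm34744, 2380 bp from the 3′ end of Bcam, with a pileup of 65 and a fold enrichment of 13.7. In the body of Nectin2, 12226 bp from its 3′ end, the peak at chr7:19728624-19729341 had a pileup of 57 and a fold enrichment of 13.0. The other 5 summits of the body had fold enrichments between 3.30 and 9.76.

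Bcam, the laminin receptor gene, held 7 summits over 14395 bp, the most inside any of the 7 genes, and no value there fell below 5.37. The strongest, chr7:19768885-19769526, stood 1365 bp downstream of the start site with a pileup of 99 and a fold enrichment of 19.9. The peak over the start site, chr7:19769741-19771665, had the highest pileup of the block, 144, and a −log10 p of 127, also the highest. Its fold enrichment of 16.7 ranked 5 in the block, over a background of 7.67. A peak at chr7:19760014-19760981 had a pileup of 57 and a fold enrichment of 10.0, and the 5 remaining summits had 5.37 to 9.76.

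Cblc, the ubiquitin ligase gene, had 2 summits inside its 17092 bp, at fold enrichments of 7.08 and 4.70. The strong peak nearest to it, chr7:19796507-19797533, lay across the higher-coordinate end with the summit 532 bp outside, a pileup of 50 and a fold enrichment of 12.4. The strand of Cblc was not read from the tables used here. A summit 1182 bp beyond the other end had 6.83.

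Bcl3, the IkB family gene, carried the strongest peak of the block, upstream of its start site. That peak, chr7:19823237-19825263, had its summit 1586 bp upstream, a pileup of 109 and a fold enrichment of 22.8. The peak on the start site itself, with the summit 96 bp upstream, had a pileup of 31 and a fold enrichment of 6.84, the median of the block. Farther upstream, at chr7:19826563-19827285, a peak had a pileup of 69 and a fold enrichment of 14.5. Inside the gene the widest peak of the block, 2528 bp at chr7:19815264-19817791, had a pileup of 86 and a fold enrichment of 19.1, with its summit 130 bp upstream of the start of Gm16174. The other 5 summits inside Bcl3 had fold enrichments of 3.98 to 6.58. Another noncoding start, that of Gm34891, had a summit 109 bp upstream with a fold enrichment of 8.48.

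Of the 11 peaks that reached a fold enrichment of 10, 3 (27.3%) had a coding gene end no more than 1 kb away, a share near the 26.6% of the whole list (upstream of Nectin2, upstream of Bcam and beside Cblc), and 4 lay inside one of the 7 genes. Counted gene by gene, all 7 genes had a summit inside or within 10 kb, where 70.5% of 21887 protein-coding genes had one. Apoc1, Bcam and Bcl3 had 12 each, Apoe and Nectin2 11 each, Tomm40 9 and Cblc 5, and 1.08% of protein-coding genes had 12 or more. These counts share peaks, since they add up to 72 over 45 peaks. The block was chosen for its summit density, so the counts and shares per gene follow from that choice and only describe it. A summit with a fold enrichment of at least 10 lay in that window of 6 of the 7 genes, all except Tomm40, where 22.2% of protein-coding genes had one. For Apoc1 and Apoe it was the same peak, the one below Apoc1.

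The outermost peaks inside it were 3476 bp below Apoc1, with a fold enrichment of 6.10, and 9353 bp above Bcl3, with 3.51. The nearest peaks outside it were 24238 bp below Apoc1, with a fold enrichment of 22.3 at the start of Clptm1, and 14656 bp above Bcl3, with 6.83. The annotation names other genes in the stretch, Apoc4 and Gm44805, a gene that spans Apoc2 and Apoc4, which had no summit inside, and the noncoding genes Gm38955, Gm34744, LOC115486450, Gm16174 and Gm34891, which had 1, 2, 2, 1 and 1.

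When the genome was tiled in bins of the length of the block, the block held 45 summits, the most of 10028 bins with a summit, against a median of 3. The bins of chromosome 7 were aligned to the block and no other bin was aligned to a cluster, so the order favours the block and only describes the values that chose it. Among the 136 bins with at least 20 summits, the block's median fold enrichment of 6.84 was exceeded by 8, and those bins ranged from 4.07 to 7.94 with a middle value of 5.37.

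**Figure D4:**
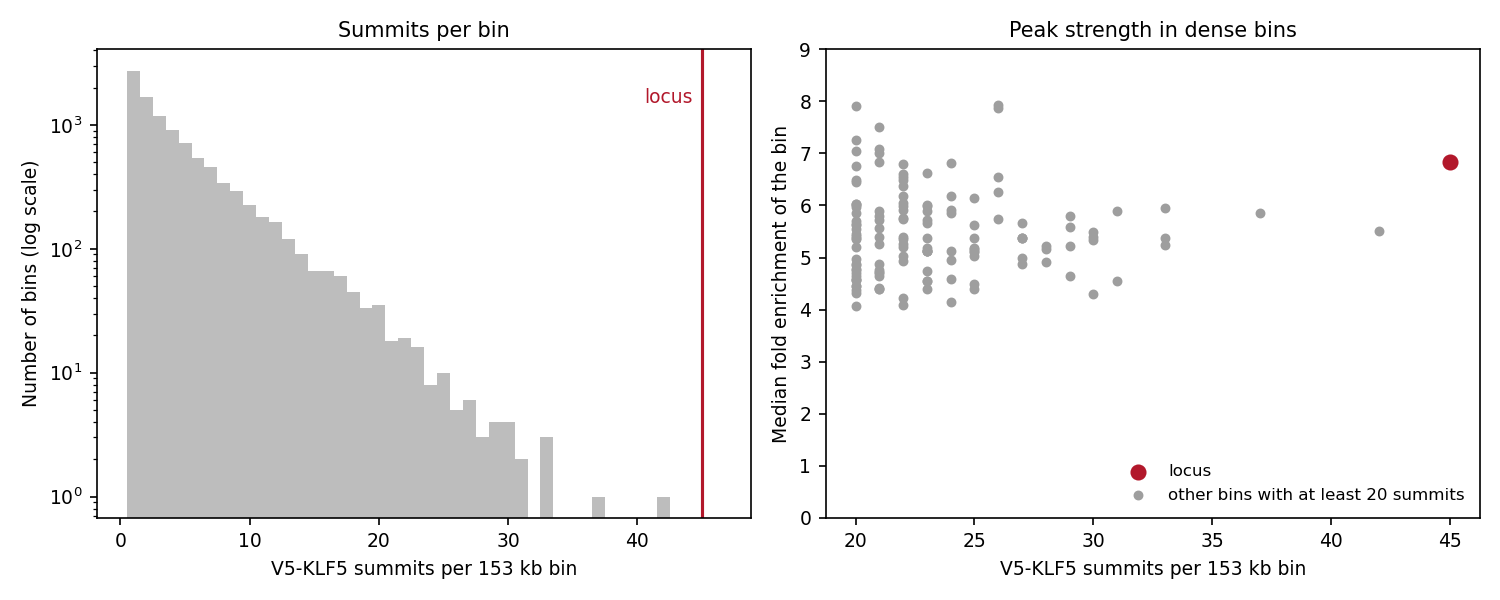
Left, the number of 153 kb bins (y axis, log scale) by summits per bin (x axis), with the block at 45 as a red line. Right, the median fold enrichment (y axis) of bins with at least 20 summits by their summit number (x axis), with the block in red at 6.84 and the other bins in grey between 4.07 and 7.94.

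Other genes, near or far, that share a family, complex or pathway with the 7 were read in the same way. Of 49 such genes in 7 lists, 47 had a summit inside or within 10 kb, where 70.5% of protein-coding genes had one, and 18 had one with a fold enrichment of at least 10 (36.7%, where 22.2% had one). Among the genes with a summit, the median of the strongest fold enrichment was 8.24, against 7.71 over all protein-coding genes with a summit. These totals include Apoc2, Apoc4, Relb and Pvr, which lie near the block on chromosome 7, and the strongest peak of Apoc4 is one of the block's own. Some other genes share a peak too, as Apoa1 and Apoc3 do, so the totals are not independent of the block or between genes. A longer gene also offers a longer window, and gene length was not matched between the lists and all protein-coding genes. The lists were chosen with earlier results known and were not tested.

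Among the apolipoprotein genes 9 of 11 had a summit, and Apoa4 and Apob, which encodes a main structural protein of lipoprotein particles, had none. Apoc2, the cofactor gene of lipoprotein lipase, and Apoc4 led with 22.3 and 18.1, at peaks nearer to Clptm1 and Apoc1 in the same part of chromosome 7. Without these neighbours, the highest was Apoh with 9.93, at a peak nearer to Cep112. The lipoprotein receptor genes had a summit in 5 of 5, led by the large endocytic receptor gene Lrp1 at 26.4, with its summit 30625 bp inside the gene, and by Lrp8 at 10.1, with its summit 32823 bp inside. Both encode receptors of apolipoprotein E.

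All 7 genes of the TOM list had a summit, led by Tomm34 at 10.4, at a peak nearer to Stk4, and Tomm6 at 9.76, at a peak nearer to Prickle4. The channel's partner genes Tomm20, Tomm22 and Tomm70a had 4.76, 5.64 and 6.21 at summits 79, 27 and 132 bp outside their ends. Of the nectin list 8 of 8 had a summit, led by Nectin1 at 15.0 and by the synaptic adhesion gene Cadm1 at 13.7. Among the adhesion genes related to Bcam 5 of 5 had one, led by Lama5, which encodes the laminin chain that Bcam binds, at 17.2, and by L1cam at 10.7. The CBL list had 3 of 3, with Cbll1 at 13.4 and Cbl, a ubiquitin ligase for receptor tyrosine kinases, at 11.2, its summit 22 bp outside the gene. The NF-kB and IkB list had 10 of 10, led by Nfkbib at 15.9, at a peak nearer to Sars2, and by Nfkb2 at 13.3. Nfkb2 and Nfkb1, which encode the subunits that Bcl3 binds, had 13.3 and 8.24.

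**Figure D5:**
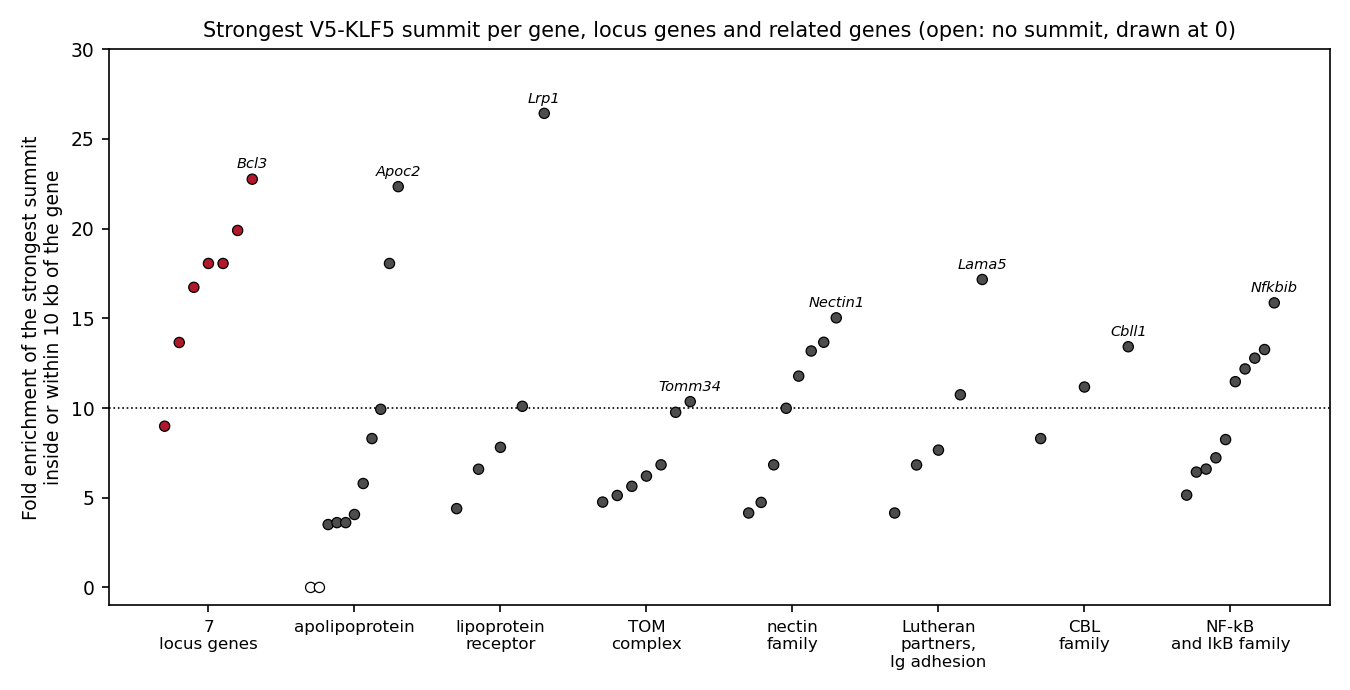
Fold enrichment of the strongest V5-KLF5 summit inside or within 10 kb of each gene (y axis) for the 7 genes of the block (red) and the 7 lists of related genes (grey), with open points at 0 for Apoa4 and Apob, which had no summit. The block runs from 8.99 for Tomm40 to 22.8 for Bcl3, with points that share peaks, and the highest point is Lrp1 at 26.4. The point of Tomm40 is a peak inside Apoc1, and that of Cblc is the peak upstream of Bcam.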

How the data were processed

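Peak lists of 3 immunoprecipitates were used, each the only library of its group, and the inputs enter as the background of the peak calls. Per the file headers, the authors called peaks with MACS2 2.1.0.20140616 on single libraries against the input of the same cells, with tags of 51 bp extended to 250 bp, 1 tag per position and a q-value cutoff of 0.05. The submitters' processing notes also name Bowtie 0.12.8 and mm10. The deposited values per peak are the pileup signal, the −log10 of the p-value and of the q-value, and fold enrichment, a ratio to the input background, and they only describe peaks within a list. The background was recomputed as (pileup + 1) / fold enrichment − 1, and values below the floor of 3.10 cannot be seen.

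A peak was placed by its summit, on assembled chromosomes. Genes were those of RefSeq GRCm38.p6, and all 49 symbols of the related lists matched. One further gene of these lists is not reported here. That gene table gives no strand, so ends of genes were used, and start sites came from the RefSeq promoter table. The members, lists and named genes (the 7 genes, other genes of the stretch, the 10 strongest peaks, and of each related list the 2 strongest genes and those without a summit) were chosen with earlier results of these data known. Of the related lists, Apoa1, Apoc3, Apoh, Tomm20, Tomm22, Tomm70a, Pvr, Nfkb1 and Relb were named in addition, outside that rule. Alternatives varied the window, the q-value, the fold threshold, how peaks are placed and the motif. Intervals are at 95% and cover counting error only. Scripts ran in Python 3.11.15 with pandas 2.3.3 and scipy 1.17.1 and were tested on simulated data.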

Additional observations from a re-analysis of the deposited data

How the results depend on the processing

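Of 35 alternative values, 33 stayed within 1.5 times the count or within the 95% interval of the value. The 33 include a median fold enrichment of 9.01 that sits on the upper bound of its interval. They also include settings that returned the main value unchanged. For pileup in place of fold enrichment, both were taken as ratios of the block's median to that of the list, 1.33 for pileup and 1.32 for fold enrichment (interval 1.04 to 1.74). That interval counts neighbouring peaks of 1 library as independent, in a block chosen from this list. It is no test of the block against the list. The number of peaks in the block was 43 with a window of 5 kb, 47 with 20 kb, 44 with summits under 500 bp apart counted once, and 31 at a −log10 q of at least 10, with the median fold enrichment at 9.01 in that last setting, where the list's was 7.57. The values that moved were the strong peaks, 22 of 45 with a threshold of 7 (48.9%, against 28.7% of the list), and the genes with a motif match in a promoter, 2 with CCACNCCC against 4 of 5 with CCNCNCCC. With CCCNCCC, chosen after the data were seen, all 5 had a match. Start sites in place of gene ends, also chosen after the data were seen, put 17.8% of the block's summits within 1 kb, against 24.9% of the list and 30.6% on the rest of chromosome 7. No paired analysis was possible because each group is 1 library, and for that reason no replicate could be left out. With 14 of the 45 peaks below a −log10 q of 10, the weak peaks rest on pileups as low as 12, and sites below the calling threshold cannot be seen.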

Other observations

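Some neighbouring genes on each side of the block were read in the same way. Below it, at lower coordinates, the NF-kB subunit gene Relb had 7 summits inside or within 10 kb, the strongest with a fold enrichment of 12.8. The zinc-finger gene Zfp296 also had 7, the strongest with 12.3, and none of them lay inside the gene. Clptm1 had 7, led by the peak at its start with a pileup of 95 and a fold enrichment of 22.3. Above it, the carcinoembryonic antigen family genes Ceacam16 and Ceacam19 had 3 each, the strongest with 7.98 and 10.2. Farther above, Pvr had 4, the strongest with 9.99, and Apoc2, below the block, also had 4. These genes were chosen for their position, after the values of the block were seen, and the counts of neighbours share peaks.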
